A study of Mus musculus with 3 samples.

Results

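5-Methylcytosine (m5C) sites that were listed in both the metaphase II (MII) oocyte and the 1-cell embryo of the mouse, but not in the germinal vesicle (GV) oocyte, are described here. A site was a member if the lists of the MII oocyte and the 1-cell embryo both held its position and that of the GV oocyte did not. This rule gave 1870 sites in 1469 genes, out of 40298 distinct sites in 8353 genes over the 3 lists. The members were 23.3% of the 8015 sites shared between MII oocyte and 1-cell embryo, and the other 6145 shared sites were also in the GV oocyte list and are called sites of every stage below. The members were thus chosen by the measured values that put a site into a list (coverage, level, unconverted reads and background), and their levels in each library are given as a description. They lay in 38.6% of the 3804 genes with a shared site.

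The RNA came from wild-type C57BL/6J females aged 7 to 8 weeks, and each stage was sequenced as 1 library, so no value has a replicate. GV oocytes are fully grown and still arrested before the first meiotic division, and were collected 48 h after 10 IU of PMSG, a hormone that stimulates follicle growth. MII oocytes are mature and ready for fertilization, and were collected 12 h after 5 IU of hCG, the hormone that triggers ovulation, in females given 10 IU of PMSG. Embryos at the 1-cell stage were taken 24 h after 5 IU of hCG from females given 5 IU of PMSG and mated with C57BL/6J males. According to the methods of the study, the zona pellucida was removed from the oocytes and the embryos alike. The series gives about 200 pooled embryos for a library. These doses and ages are from the sample labels, and the methods of the study give another hCG dose for the MII oocytes. The methods also refer the embryo donors to the hormone treatment of the oocyte donors, and give an age of up to 10 weeks for the latter. The conversion protocol in the labels also differed between oocytes and embryos, so library preparation and stage cannot be told apart. In bulk RNA, new methylation and the loss of unmethylated copies of an mRNA also cannot be told apart. The 1-cell embryo list analysed here differs in coverage and levels from the list given with the study, and its values describe the deposited library alone. Summed over the 15910, 20694 and 24996 listed sites from the earliest stage to the latest, the coverage was 4475058, 5285011 and 2616279. A read over several listed sites counts at each of them in these sums. Of 14 oocyte marker genes, 9 held a listed site in the GV oocyte, 11 did in MII oocytes and all 14 did in 1-cell embryos. Of 12 cumulus and granulosa cell markers, 1, 2 and 1 did in the same order.

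m5C in mRNA is made mainly by the methyltransferase NSUN2, whose sites tend to be followed by G-rich sequence at the base of a stem (Type I), and by NSUN6, which acts at the motif CUCNA, read here as CTCNA (Type II). In oocytes and early embryos, transcription is low or absent and the stored maternal mRNAs are translated, stabilized or cleared in a set order. The m5C-binding proteins YBX1 and ALYREF are known for mRNA stability and export. In bisulfite sequencing an unmethylated C is read as T, and the m5C level of a site is the percentage of its reads that kept the C.

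The sequences of 9 members on which the results turn are given first, as 25 bases of the RNA strand in DNA letters, read from the GRCm38 genome 5′ to 3′. The first 5 are among the 8 with the largest called rise from MII oocyte to 1-cell embryo at 50 reads or more in both libraries, and the capitals mark the methylated C and the 4 bases after it. They lie at chr12:91647539-91647563 (minus strand), chrX:73437480-73437504 (minus strand), chr10:121412196-121412220 (minus strand), chr11:115964375-115964399 (plus strand) and chr6:57691904-57691928 (minus strand).
Ston2: agcgagcattaaCGGGGcggaagta
Haus7: cacaagatgatgCAGGGctataaag
Rassf3: gagccaaagagcCAGGAgctaagcc
Sap30bp: aagaaggccaagCAGTGaccagagg
Pyurf: tctgcaagtgccCGGGGccaggctc
The other 4 lie in transcripts with a known place in the oocyte or are Type II sites. Gdf9 encodes a growth factor secreted by the oocyte, Ccnb1 encodes cyclin B1, and in Oas1c and Rnf181 the capitals spell the Type II motif. They lie at chr11:53437220-53437244 (plus strand), chr13:100785757-100785781 (minus strand), chr5:120808584-120808608 (minus strand) and chr6:72360594-72360618 (minus strand).
Gdf9: tttcccccaaaaCGAGTgtgaactc
Ccnb1: tggtaataaagtCAGCGaagagcta
Oas1c: tcctgtgagggtCTCCAgggttgtg
Rnf181: cgcctggagaacCTCCAcggagcca
The sites of Ston2 (exon 4 of 5), Sap30bp (exon 11 of 11), Pyurf (exon 1 of 2), Gdf9 (exon 2 of 2), Ccnb1 (exon 2 of 9), Oas1c (exon 2 of 7) and Rnf181 (exon 5 of 5) lay in coding sequence, and those of Haus7 (exon 10 of 10) and Rassf3 (exon 5 of 5) in the 3′ untranslated region (UTR). In Ston2 and Pyurf all 4 bases after the site were G, and in the other Type I sites printed here 2 or 3 were.

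The members were lowly methylated in the MII oocyte. Their median level was 12.75% (95% interval of the median 12.57 to 12.92, quartiles 11.21 and 15.56, highest 61.76%), at a median coverage of 229.5 reads. In the 1-cell embryo the median was 25.49% (24.86 to 26.14, quartiles 17.54 and 36.75), at a median coverage of 66 reads. Sites of every stage had medians of 21.6% in the GV oocyte, 28.12% in MII oocytes and 45.45% in 1-cell embryos, at 279, 242 and 66 reads. The members were therefore covered about as deeply as the sites of every stage in both libraries, and their levels were lower in both. Among the members, 1337 (71.5%) had an MII level less than 5 points above the minimum of 10% that the lists apply, and in the 1-cell embryo 16.1% were at 15% or below. Both lists also required at least 20 reads and 5 unconverted reads, and a shallow site needed a higher level to be listed. The unconverted background of the members' genes, recovered from the deposited p-values, had medians of 0.2575% in the GV oocyte, 0.3606% in MII oocytes and 0.424% in 1-cell embryos, which is far below the levels of the sites. These medians are over 1468, 1848 and 1863 members, since a GV background exists only for genes with a site in the GV oocyte list. For members in such genes the MII and 1-cell medians were 0.375% and 0.4595%.

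**Figure D1:**
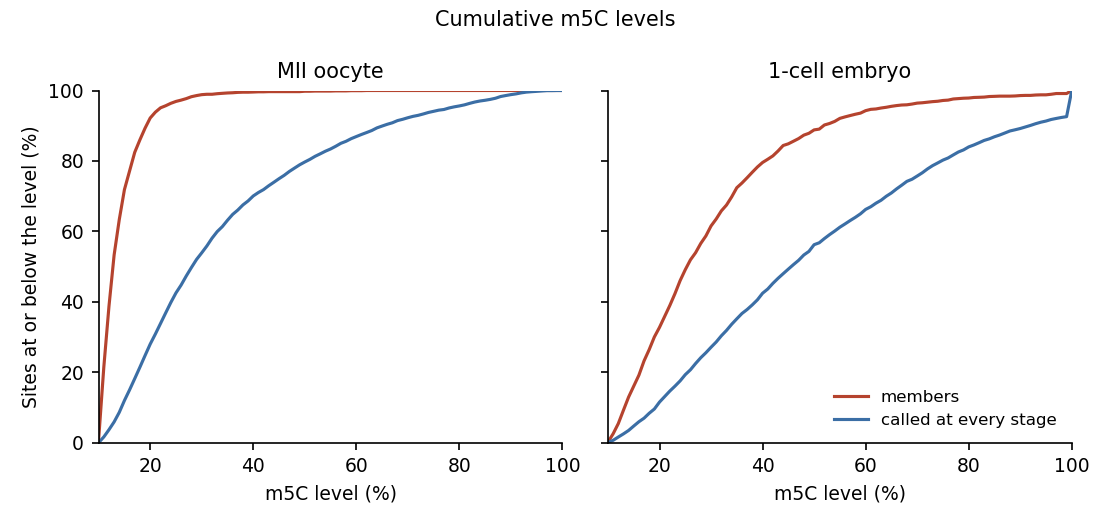
Cumulative m5C levels in the MII oocyte (left) and the 1-cell embryo (right); the x axis is the level in percent and the y axis the percentage of sites at or below it. The members (red, 1870 sites) had a median of 12.75% in the MII oocyte against 28.12% for the sites of every stage (blue, 6145 sites), and of 25.49% against 45.45% in the 1-cell embryo.

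The share of shared sites that was missing from the GV oocyte list fell steeply with the MII oocyte level. It was 76% (719 of 946 sites, 95% Wilson interval 73.18 to 78.62) at MII levels from 10 to 12%, 54.98% from 12 to 15%, 28.01% from 15 to 20% and 7.692% from 20 to 30%. From 30 to 40% it was 1.303% (13 of 998 sites), from 40 to 50% it was 0.5051% (3 of 594) and at 50% or more it was 0.4743% (6 of 1265). The share depended less on MII coverage, with 34.66% at 20 to 50 reads and values between 21.81% and 26.25% above that. Sites just outside the rule, which were called at every stage with a GV level of 10 to 11%, numbered 373 and had medians of 10.53% (GV oocyte), 14.72% (MII oocyte) and 25.17% (1-cell embryo). Members just inside it, with an MII level of 10 to 11%, numbered 397 and had medians of 10.46% and 22.45% in the MII oocyte and the 1-cell embryo. The GV level of the members is not known, so how far they lay from the GV limit cannot be given.

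**Figure D2:**
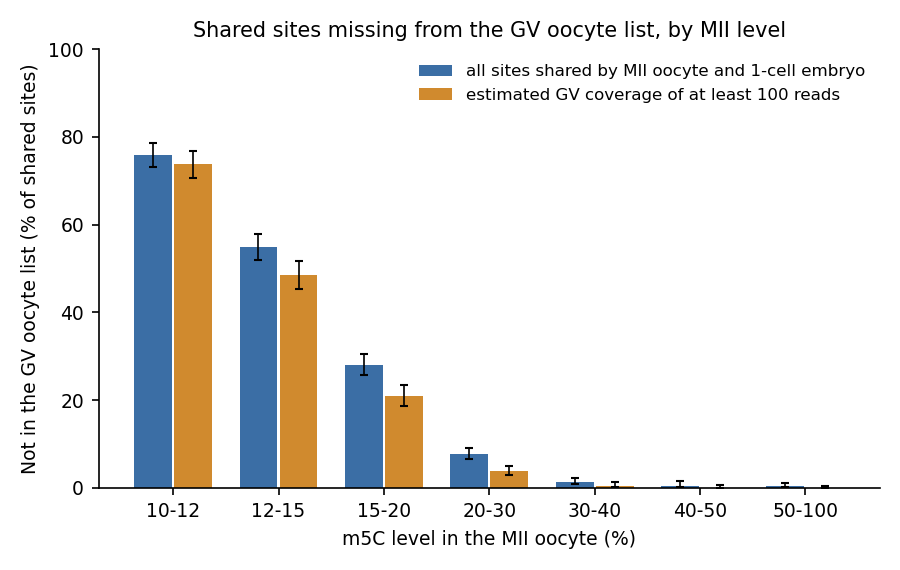
Percentage of the sites shared by the MII oocyte and the 1-cell embryo that were not in the GV oocyte list (y axis), by m5C level in the MII oocyte in percent (x axis); bars start at 0 and whiskers are 95% Wilson intervals, which cover counting error only. The share was 76% at the lowest levels and under 2% from 30% on. For the sites with an estimated GV coverage of at least 100 reads it was 73.91% at the lowest levels, with lower values than over all sites in each range. That limit also removed the members without an estimate, which by itself lowers the share.

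The lists do not give the GV coverage of a site that was not called, so it was estimated from the other sites of the gene. The MII coverage of the member was multiplied by the median ratio of GV to MII coverage over the sites of its gene in both oocyte lists. This was checked at 8068 sites of genes with several sites in both oocyte lists, leaving out each site in turn. The estimate lay within 2-fold of the measured value at 98.81% of them. Some members' estimates rest on 1 site of the gene, and the accuracy of those was not checked. Of the 1494 members with an estimate, 1493 had at least 20 reads, 1448 (96.92%) at least 50 and 1277 (85.48%) at least 100, with a median of 281.8 reads. The ratio comes only from sites called in the GV oocyte, which have at least 20 reads there. An estimate of at least 20 reads was therefore close to given in advance. A gene poorly covered in the GV oocyte gives no estimate, so the GV coverage of the other members stays unknown. With the shared sites limited to those with an estimate of at least 100 reads, the missing share was 73.91%, 48.53%, 20.96% and 3.857% in the first 4 of the level ranges above. The Wilson intervals of the last 3 of these were 45.24 to 51.82, 18.66 to 23.46 and 2.982 to 4.975. All 6145 sites of every stage had an estimate, since they are themselves in both oocyte lists, but only 1494 of the 1870 members did. The limit thus removed members for want of an estimate, which by itself lowers the missing share. No conclusion is drawn from these shares being below those over all shared sites. Under the same limit the missing share was 4 of 832 sites from 30 to 40%, 0 of 511 from 40 to 50% (upper Wilson bound 0.7461%) and 0 of 1077 at 50% or more (0.3554%). A total of 1554 members (83.1%) lay in a gene with at least 1 site in the GV oocyte list, and the other 316 lay in 287 genes without any.

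Some members stood next to a site that was called in the GV oocyte. A GV site within 50 nt was found for 249 members (13.32%, 11.85 to 14.93), and another GV site lay that near to 16.53% (15.63 to 17.48) of the sites of every stage. Within 10 nt there were 80 members, and for 69 of them that GV site was covered by at least 100 reads. From these 69, the 6 with the highest MII level are given, so a covered GV site nearby is part of how they were picked. In Zdhhc18, which encodes a palmitoyltransferase, the GV site 1 nt away had a level of 21.61% over 384 reads, and the member had 21.41% (17.53 to 25.88) over 369 reads in MII oocytes and 30.66% (23.55 to 38.82) over 137 in 1-cell embryos. In the 5′ UTR of Tanc1, a scaffold gene of synapses, the GV site 6 nt away had 13.08% over 214 reads, and the member had 19.7% (14.76 to 25.79) and 56.25% (42.28 to 69.3) in the MII oocyte and the 1-cell embryo. In Zfp512b, Nrp1 and Itpk1 the GV site was also 1 nt away, with levels of 42.93%, 10.28% and 53.49% over 184, 107 and 301 reads. The MII level was 19.11% in Zfp512b, 18.1% in Nrp1, which encodes neuropilin 1, and 17.98% in Itpk1, which encodes an inositol phosphate kinase. In the 3′ UTR of Plekha8 the GV site lay 9 nt away, with 10.6% over 368 reads, and the member had 19.45% in the MII oocyte.

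From MII oocyte to 1-cell embryo, 1715 of the 1870 members (91.71%) had a higher level and 154 a lower one, whereas 83.76% of all shared sites and 81.33% of the sites of every stage had a higher level. The members' low MII level and the minimum of 10% in the embryo list left them little room to be lower. The median difference was 11.78 percentage points (11.18 to 12.32), and it was 13.08 points for the sites of every stage. With at least 100 reads in both libraries it was 7.141 points in the members, and with a level of at least 20% it was 21.28 points. Each shared site was compared by Fisher's exact test (two-sided) on its unconverted and converted reads, with Benjamini-Hochberg adjustment over all 8015 sites and a threshold of 0.05. This test compares the reads of 2 libraries and not the stages. By it, 946 members (50.59%) passed the threshold and were higher in the 1-cell embryo (called higher), against 51.3% of all shared sites, so the share of the members was near the background. With every site thinned to 20 reads in both libraries, 144 members (7.701%) and 9.819% of all shared sites were called higher. Without thinning, only 1 member was called lower, against 2.45% of all shared sites. As a ratio, the embryo level was a median of 1.877 times the MII level in the members and 1.423 times in the sites of every stage, whose MII levels were higher. A total of 846 members (45.24%) had at least 2 times the level, a share not computed for the other sites. At MII levels of 10 to 12%, 12 to 15% and 15 to 20% the embryo medians of the members were 22.5%, 24.47% and 28.57%. Those of the sites of every stage were 26.03%, 26.55% and 29.25%. At 20 to 30% the medians were 42.51% in the members and 38.46% in the sites of every stage. At matched MII levels of 10 to 12%, 56.88% of the members and 59.03% of the sites of every stage were called higher. At MII levels of 15 to 20% the shares were 41.11% (36.26 to 46.15) and 52.94% (49.79 to 56.07), where the members had a median of 174 MII and 57 embryo reads and the sites of every stage 297 and 82. The part of coverage in that gap was not tested.

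**Figure D3:**
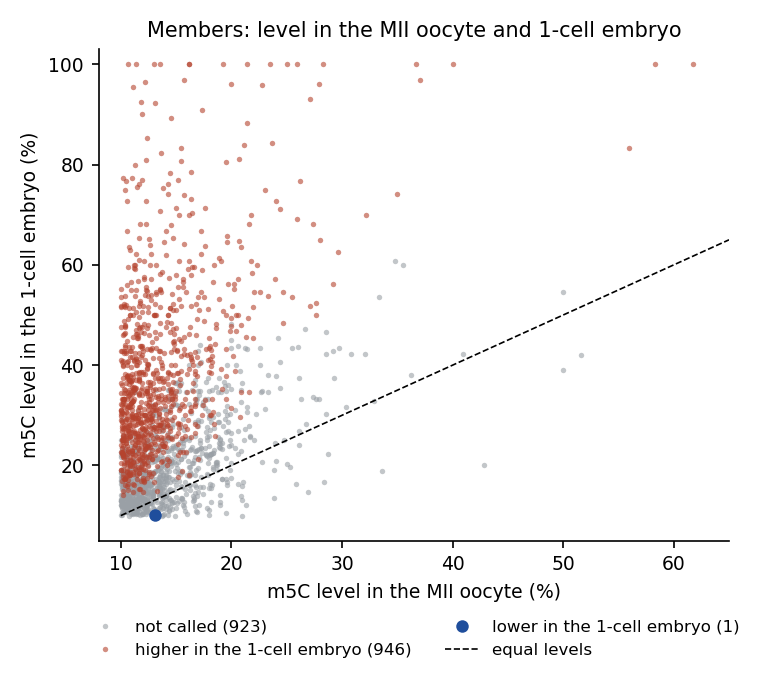
m5C level of each member in the MII oocyte (x axis, percent) and in the 1-cell embryo (y axis, percent), coloured by the call of Fisher's exact test; the dashed line marks equal levels. Of the 1870 members, 946 were called higher in the 1-cell embryo (red), 923 were not called (grey) and 1, in Tfap2e, was called lower (blue).

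The largest called rises among members with at least 50 reads in both libraries were in transcripts of varied kinds, in coding sequence (CDS) and in UTRs. In Ston2, the gene of an endocytic adaptor, the site in exon 4 of 5 rose from 11.87% (8.232 to 16.83, 219 reads) to 92.45% (82.14 to 97.03, 53 reads), with an adjusted p of 1.001e-27 by Fisher's exact test. A GV site of the same gene, 138 nt away, had 53.97% over 239 reads, and the estimated GV coverage of the member was 254.9 reads. In the 3′ UTR of Haus7, the gene of a subunit of the augmin complex of the spindle, the level rose from 21.43% (13.44 to 32.39, 70 reads) to 88.24% (76.62 to 94.49, 51 reads), and this gene had no site in the GV oocyte list. The non-coding transcript 9330102E08Rik went from 27.1% to 93.13%. In the 3′ UTR of Rassf3, a gene of the Ras association domain family also without a GV site, the level went from 13.79% (11.41 to 16.56) to 75.41% (63.32 to 84.49). The last exon of Sap30bp, whose product binds the SAP30 corepressor, held a site that rose from 11.76% (9.53 to 14.44, 663 reads) to 68.07% (60.64 to 74.69, 166 reads). Prex1, which encodes an activator of Rac, rose from 16.4% to 70.41%, the 5′ UTR of Mcc from 11.61% to 65.33%, and Pyurf from 12.73% to 62.16%. In all 8, which were picked for the size of a called rise, the Wilson intervals of the levels did not overlap. The call of Mcc was lost when each site was thinned to 20 reads (adjusted p of 0.1397 by Fisher's exact test), and that of Pyurf when the reads were divided by 5 (adjusted p of 0.0605). In the embryo, 16 further members (0.8556%) were read as fully unconverted (100%), at 20 to 47 reads each. This was a smaller share than the 7.339% (451 of 6145) of the sites of every stage.

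The one called fall was in exon 2 of Tfap2e, which encodes a transcription factor of the AP-2 family. Its level was 13.12% (11.77 to 14.59, 2203 reads) in MII oocytes and 10.06% (8.19 to 12.3, 825 reads) in 1-cell embryos, with an adjusted p of 0.04702 by Fisher's exact test. The intervals of both levels overlapped, and the call was lost when the site was thinned to 20 reads (adjusted p of 0.993) and when the reads were divided by 5 (adjusted p of 0.734). A GV site 62 nt away had 15.44% over 1807 reads.

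Members with a high MII level were few. With at least 50 reads in both libraries the highest was in the 5′ UTR of Gpr3, whose receptor holds the oocyte in meiotic arrest, with 33.58% (26.21 to 41.84, 137 reads) in MII oocytes and 18.84% (11.35 to 29.61, 69 reads) in 1-cell embryos. That difference had an adjusted p of 0.06086 by Fisher's exact test and was not called. Its estimated GV coverage was 151.7 reads, and the nearest GV site, 1259 nt away, had 22.89% over 485 reads. Sgcd, the gene of a sarcoglycan, had 32.94% and 32.76%, and Trim44 had 30.83% and 42.31%, neither difference being called. Lonrf1 had 28.57% and 42.16%, Slc25a15, the gene of the mitochondrial ornithine carrier, had 27.39% and 33.64%, and both were also not called. Zfhx3, the gene of a homeobox transcription factor, rose from 27.66% (20.94 to 35.56) to 52.46% (40.16 to 64.47), and Bcar1, an adaptor of integrin signalling, rose from 27.12% to 51.79%. The 6 members at 50% or more in the MII oocyte were singled out after their values were seen. They were in Aox4, Dhx35, Csk, Nicn1, Csmd1 and Dpy19l1, with 24 to 100 MII reads, and for Csmd1 alone of these could a GV coverage be estimated, at 54.78 reads.

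**Figure D4:**
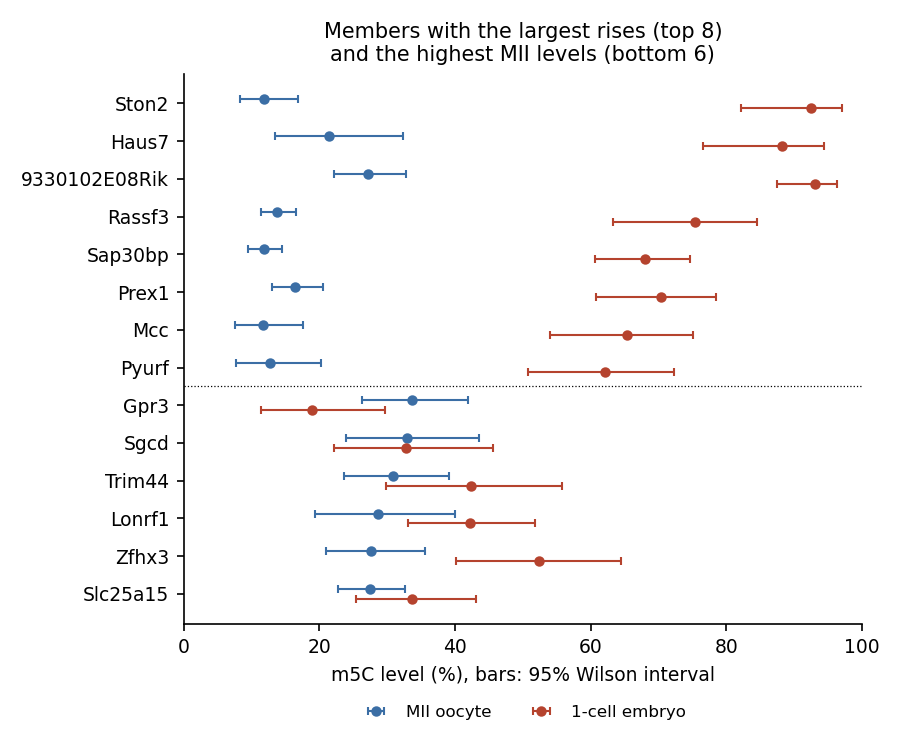
m5C level with its 95% Wilson interval (x axis, percent) in the MII oocyte (blue) and the 1-cell embryo (red) for the 8 members with the largest called rises (top) and the 6 with the highest MII level (bottom), all with at least 50 reads in both libraries. The intervals of the 8 rises, which were picked for their size, did not overlap. Among the 6 with the highest MII level those of Zfhx3 did not overlap and those of the other 5 did.

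The 6 members with the most reads in the shallower of both libraries differed by 1.555 to 8.322 points. The first of these was in exon 2 of Zbed3, which encodes a protein of the subcortical maternal complex, an assembly under the oocyte membrane that the embryo needs for its first divisions. Its level was 10.23% (10.01 to 10.46) over 72121 reads in MII oocytes and 14.01% (13.59 to 14.44) over 25609 in 1-cell embryos. The GV site 31 nt away had 11.09% over 60941 reads, and the estimated GV coverage of the member was 60168 reads. Ccnb1 rose from 12.36% (11.4 to 13.39, 4190 reads) to 20.62% (19.25 to 22.06, 3172 reads), and no site of Ccnb1 was in the GV oocyte list. Btg4, which recruits the deadenylase that clears maternal mRNA, held 2 members. The first, in exon 4, rose from 12.05% (11.39 to 12.74) to 17.58% (16.16 to 19.1), and lay 32 nt from a GV site with 77.8% over 7095 reads. The second, in exon 5, rose from 12.09% to 20.42%. The histone gene Hist1h3f went from 16.17% to 18.18%, C86187 from 13.31% to 14.87% and 4933427D06Rik from 15.15% to 17.6%, and these were called although each moved by under 3 points. Hist1h3f, Nlrp5, Oas1c and Oas1d belong to families with near-identical copies, so their reads may be shared with other genes.

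Among gene lists, the share of genes with a member is set beside 18.3%, the share of all 8048 genes with an MII or 1-cell site that hold one, and the median difference beside 12.74 points over all shared sites. The counts called higher and lower are set beside 51.3% and 2.45% of all shared sites, and counts of any higher embryo level beside 83.76%. All sites counted in the lists are members. Over the 1870 members, 50.59% were called higher, 1 was called lower and 91.71% had a higher embryo level, with a median difference of 11.78 points. Few or no falls in a list are therefore shared with the members as a whole. The shares called are over few members per list and are given as a description. Where a gene of a list had several members, the values are those of the one with more reads. Genes with many sites have more chances to hold a member. Of the maternal-effect and subcortical complex genes, 11 of 26 (42.31%) held 14 members, with a median difference of 10.38 points, and 9 of these were called higher and 0 lower. Tle6, a core component of that complex, rose from 11.62% (10.89 to 12.39, 6987 reads) to 24.62% (22.76 to 26.57, 1966 reads), and a GV site 473 nt away had 12.02% over 11543 reads. Nlrp5, another component, rose from 10.63% to 18.02% and had no GV site, and Oas1d had 11.7% and 13.3%, which was not called. Of the oocyte-secreted and zona genes, 3 of 10 held a member. Gdf9 rose from 11.56% (10.73 to 12.44, 5382 reads) to 25.95% (22.62 to 29.59, 605 reads), with a GV site 117 nt away at 45.31% over 16549 reads. Astl, the gene of the protease that cleaves a zona protein after fertilization, rose from 12.78% (11.14 to 14.62) to 29.41% (23.08 to 36.66), and Kit, the receptor of the Kit ligand, had 12.39% and 17.93%, which was not called. Of 14 oocyte markers, 5 (35.71%) held 6 members, with a median difference of 6.465 points.

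Of the meiotic and cell cycle regulators, 12 of 41 genes (29.27%) held 16 members, 8 called higher and 0 lower, with a median difference of 6.978 points. Ccnb1 and Gpr3, described above, belong to this list. Ppp2r1a, the scaffold subunit of protein phosphatase 2A, rose from 10.53% to 18.63%. Aurkc, the meiotic aurora kinase, had 11.39% and 15.05%, with an adjusted p of 0.05121 by Fisher's exact test, and the deeper site of Mastl, the Greatwall kinase, had 13.51% and 15.57%, neither being called. Of the genes of translation control and mRNA decay, 13 of 46 (28.26%) held 16 members, 8 called higher and 0 lower, with a median difference of 7.026 points. These included Btg4 and Cnot6l, a deadenylase subunit, which had 14.39% and 11.07% and was not called. Eif4e1b, the oocyte form of the cap-binding protein, had 10.17% and 10.67%, also not called. None of the 9 genes of m5C writers, erasers and readers with an MII or 1-cell site held a member, and neither did the 3 cumulus and granulosa markers with such a site.

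Of the chromatin modifiers and remodelers, 16 of 67 genes (23.88%) held 21 members, all with a numerically higher embryo level, 14 of them called, with a median difference of 16.8 points. Sin3a, a corepressor scaffold, rose from 10.91% (9.339 to 12.71, 1320 reads) to 34.56% (29.61 to 39.86, 327 reads), and Chd4, the ATPase of the NuRD complex, from 17.37% to 30.1%. Arid1b, a subunit of the BAF remodeler, rose from 11.79% to 19.39% at its deepest member, whereas Kdm6a, a demethylase of H3K27, had 10.53% and 11.93% and was not called. Of the basement membrane and adhesion genes, 9 of 30 held 15 members, 11 called higher and 0 lower, with a median difference of 18.5 points. The integrin gene Itga6 rose from 10.3% (8.488 to 12.44) to 27.57% (22.6 to 33.17), the semaphorin receptor gene Plxna1 from 16.48% to 40.87%, the cadherin gene Fat1 from 12.25% to 23.53% and the laminin gene Lamb1 from 11.12% to 18.68%. Of the Wnt, Notch and TGF-beta signalling genes, 7 of 43 (16.28%) held 12 members, 5 called higher and 0 lower, with a median difference of 8.956 points. The 2 members of the Notch ligand gene Jag2 rose from 13.78% to 22.6% and from 10.02% to 19.13%. Axin2, an inhibitor of Wnt signalling, had 10.47% and 14.58% in its 5′ UTR, with a GV site 10 nt away at 51.86% over 376 reads, and Smad2, a mediator of TGF-beta signals, had 11.69% and 13.7%, neither being called in these members.

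Members were spread over genes, with 1 member in 1162 genes, 2 in 234, 3 in 59, 4 in 7 and 5 in 7. Of the 1469 genes, 936 also held a site of every stage. Sipa1l1, 4931406P16Rik, Ep400, Myo19, Pdzd2, Gse1 and Auts2 held 5 each. In Ep400, a remodeler of the p400 complex, the 5 members had 11.33% to 16.99% in MII oocytes and 18.97% to 46.6% in 1-cell embryos, and 2 were called higher. In Gse1, whose product belongs to a corepressor complex, they had 10.22% to 21.23% and 20% to 54.55%, and 3 were called. In Pdzd2 the range was 10.84% to 15.71% and 12.79% to 62.96%, and in Sipa1l1, a regulator of Rap signalling, it was 10.63% to 15.33% and 13.99% to 45.45%. In Myo19, the gene of a mitochondrial myosin, members 3 nt apart in exon 12 had 11.42% and 11.91% in MII oocytes and 38.46% and 13.19% in 1-cell embryos, at 91 reads each. Members of 1 transcript thus moved by different amounts, with called rises next to sites that were not called. Auts2 held 5 members from 10.66% to 16.74% and no site of every stage, and 4931406P16Rik ranged from 10.32% to 39.18% in the embryo. Cdk8, the kinase of the Mediator complex, held 4, with 2 called higher.

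In 24 genes with at least 2 members the GV oocyte list held no site at all. Puf60, the gene of a splicing factor, had its 3 members at 10.12%, 10.37% and 11.64% in the MII oocyte, over 434 to 859 reads. In the 1-cell embryo they were at 40.71%, 48% and 36.75%, and all 3 were called higher. Ybx2, which encodes the germ cell protein MSY2 that stores maternal mRNA, had 11.35%, 12.78% and 12.52% and then 11.3%, 21.29% and 24.02%, and the latter 2 were called. Klhdc3 had 3 members in exon 3 on both sides of its start codon, with 13.5% to 15.8% in MII oocytes and 17.62% to 29.06% in 1-cell embryos. Rassf3 had all 3 in its 3′ UTR, at 18.64%, 75.41% and 40% in the embryo, the last over 20 reads, and Sp110 had 15.28% to 31.12%. Over the 316 members in genes without a GV site, the medians were 13.39% (13.01 to 13.82) in MII oocytes and 28.09% (26.4 to 30.77) in 1-cell embryos, and 51.58% were called higher. In the 1554 others they were 12.63% (12.47 to 12.8) and 25% (23.91 to 25.69), with 50.39% called. The GV coverage of the first group could not be estimated.

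By position and sequence, which the rule did not use, the members were close to the sites of every stage in their regions and had a smaller part of Type II. The CDS held 73.69% (71.65 to 75.64) of the members and 72.64% (71.52 to 73.74) of the sites of every stage, the 5′ UTR 11.02% of both, and the 3′ UTR 13.21% (11.75 to 14.82) and 14.74% (13.88 to 15.65). The median distance from the transcript start was 1113 nt (1034 to 1189) and 1031 nt (995 to 1064). Type II sites made up 52 of the 1870 members, or 2.781% (2.127 to 3.628), and 5.452% (4.911 to 6.048) of the sites of every stage, while 1.608% of all C in the transcripts of the members stood at the start of a CTCNA. Limited to MII levels of 10 to 20%, the Type II shares were 2.859% (2.169 to 3.759) and 6.169% (5.122 to 7.414), so the intervals did not overlap in this range either. The range does not fully match the levels. It held 719 members and 227 sites of every stage at 10 to 12%, and 377 and 969 at 15 to 20%. The smaller part was not particular to the members, since Type II sites made up 3.816% of the sites of the MII oocyte list only and 2.733% of those of the 1-cell embryo list only, and between 5.405% and 6.315% of the other sets with a GV call. These intervals cover counting error only, and no test was made. The Type II members had medians of 12.04% (11.21 to 13.91) and 20.5% (17.14 to 22.73) in the MII oocyte and the 1-cell embryo. Of these, 14 of 52 (26.92%) were called higher, against 932 of 1818 Type I members (51.27%) and 51.3% of all shared sites. Their median coverage was 170 MII and 72 embryo reads, and that of the Type I members 230 and 65. The share called was not computed by type outside the members, so it is not known whether the gap is particular to them. The 4 with the most reads were in Oas1c, Tmem255b, Rnf181 and Stard13, of which Rnf181, the gene of a ubiquitin ligase, rose from 10.79% (9.065 to 12.79) to 18.05% (14.87 to 21.73). Oas1c had 10.92% and 12.03%, Tmem255b 10.32% and 11.6%, and Stard13 14.6% and 11.38%, none of them called.

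The Type I members were followed by a mean of 2.171 G (2.131 to 2.21) among the 4 bases after the site, and the Type I sites of every stage by 2.244 (2.222 to 2.266). In sites of the MII oocyte list only the mean was 2.174. Over all C of the members' transcripts outside CTCNA the mean was 0.9437. At levels of 10 to 20% in the MII oocyte the means were 2.16 (2.119 to 2.202) and 2.193 (2.152 to 2.235), whose intervals overlapped. In minimum-energy folds of the site with 50 nt on each side, the second base after a Type I site was paired in 70.42% (68.27 to 72.49) of the members and 75.13% (74.00 to 76.23) of the sites of every stage, and the third base in 71.82% and 75.88%. At levels of 10 to 20% the shares for the second base were 70.44% (68.19 to 72.59) and 75.37% (73.18 to 77.43). The paired share of the whole window had the same median of 57.43% in both sets. The embryo medians of the Type I members were 22.22% (16.67 to 33.33) without any G after the site and 25% (23.78 to 26.87), 25.76% (25 to 27.59), 25.87% (24.14 to 27.43) and 26.01% (22.86 to 31.58) with 1, 2, 3 and 4 G, steps that were small beside these overlapping intervals.

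**Figure D5:**
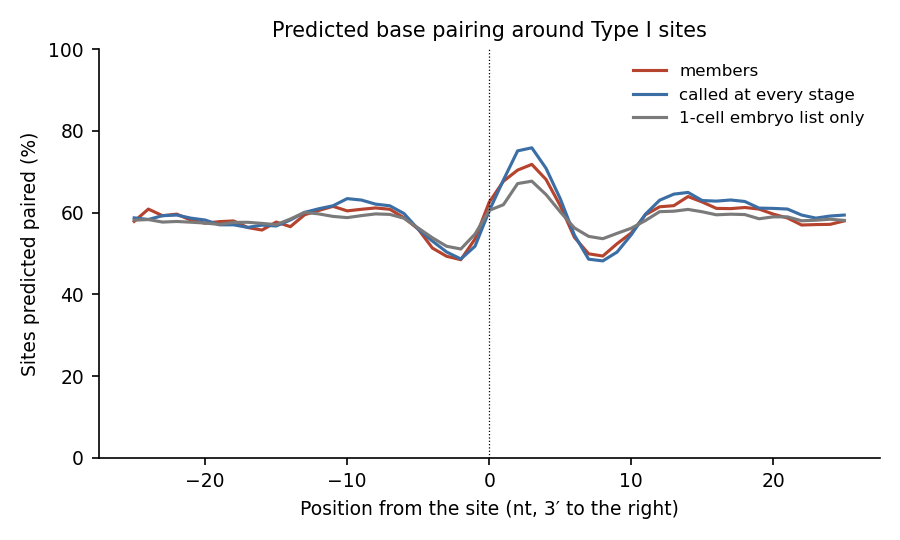
Percentage of Type I sites whose base was predicted to be paired (y axis), by position from the site in nt (x axis, 3′ to the right, 0 is the site). At the third base after the site it was 71.82% in the members (red) and 75.88% in the sites of every stage (blue), and sites of the 1-cell embryo list only (grey) lay below both there.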

How the data were processed

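Sites were measured by RNA bisulfite sequencing in 1 library each of GV oocytes, MII oocytes and 1-cell embryos. According to the methods of the study and the submitters' processing notes, reads were trimmed with cutadapt 1.13 and Trimmomatic 0.36 and aligned with HISAT2 and Bowtie2 2.2.9 to GRCm38 (mm10). The labels name polyadenylated RNA, whereas the methods name RNA depleted of ribosomal RNA. The authors filtered sites on coverage, level, unconverted reads, conversion-resistant genes and a binomial test. The coverage was deposited as a count of reads per site and was not normalized. Levels of m5C, which the authors deposited as the fraction of unconverted reads, are given in percent. The p-value deposited by the authors compares a site with the background of its gene, which was recovered from it. The lists hold called sites alone. Absence from a list can thus mean a level below the limits, too few reads or removal by another of the authors' filters, such as that on conversion-resistant genes. Which of these held for a member in the GV oocyte is not known.

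Unconverted reads were the level times the coverage. Sites were placed in GENCODE M21 transcripts, read from the RefSeq GRCm38 genome, and folded at 37 °C by RNAfold (ViennaRNA 2.7.2). Type II sites were those at the first base of CTCNA on the RNA strand. Fisher's exact test was run with scipy 1.17.1 (Python 3.11.15) over all 8015 shared sites with Benjamini-Hochberg adjustment, and was tested on simulated data. Intervals are 95% Wilson intervals for shares and order-statistic intervals for medians, and cover counting error only. Means of G have normal intervals.

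The members and gene lists were chosen with earlier results of these data known. Named sites had at least 50 reads in both libraries. They were the 8 largest rises and up to 6 largest falls that were called, the 6 highest MII levels, the 6 highest levels in the lower library, the 6 best covered, up to 4 genes per list, the 4 best covered Type II members, and the 6 highest MII levels within 10 nt of a GV site with at least 100 reads (the last 2 groups without the read minimum). Named genes were the 8 with most members and the 6 with most members and no GV site. Alternatives were coverage minimums, a level minimum of 20%, a stricter deposited p-value, thinning to 20 reads, division of reads by 5, non-overlapping intervals, other distances and a 61 nt window. Sites on chromosome 18 have no printed sequence.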

Additional observations from a re-analysis of the deposited data

How the results depend on the processing

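No paired analysis was possible because each stage had 1 library, and no library could be left out. Of the recomputed values, 52 were labelled the same, 43 moved, 4 lost a call and none reversed. The same meant a value within its interval, a count within a fixed fold range of the main count, or a named site that kept its call. A count labelled the same could thus lie outside its interval. By non-overlapping intervals, for example, 820 members were higher, against 946 (886.7 to 1008.3) in the main setting. With a coverage minimum of 50 reads there were 1163 members in 927 genes, with medians of 12.4% and 21.43%, a median difference of 8.345 points and 586 called higher (50.39%, and 52.49% of all shared sites). An estimated GV coverage of at least 20 reads was found for 81.94% of the 1163, where members without an estimate count as not reaching it. With 100 reads there were 627 in 520 genes, with medians of 12.24% and 19.89%, a difference of 7.141 points, 349 called higher (55.66%, and 56.56% of all), 77.51% in the CDS and 9.091% in the 3′ UTR. With a level minimum of 20% there were 141 in 140 genes, with medians of 23.33% and 43.75% and a difference of 21.28 points. Of these, 66 were higher (46.81%, and 53.24% of all) and 0 lower, 66.67% lay in the CDS and 13.48% in the 5′ UTR, and 73.05% lay in a gene with a GV site. Their estimated GV coverage was at least 20 reads in 63.83%, again with members without an estimate counted as not reaching it. Their mean G count was 2.29 and their median pairing was 55.45%. Thinned to 20 reads, the median MII level was 15% and the difference 15 points, with 144 higher (7.701%, and 9.819% of all) and 0 lower by Fisher's exact test. With reads divided by 5, 112 were higher (5.989%, and 7.336% of all) and 0 lower, and by non-overlapping intervals 0 were lower. The share with a GV site nearby was 6.471% within 20 nt and 19.36% within 100 nt, and the median pairing in 61 nt windows was 52.46%. The members with an estimated GV coverage of at least 100 reads, a limit chosen after seeing the data, lay in 972 genes, with medians of 12.36% and 23.47%, a difference of 10.12 points and 75.72% in the CDS. The difference was -10 points in Tfap2e and 40 points in Mcc when thinned, and -2.849 points in Tfap2e and 46.36 points in Pyurf with divided reads. Causes were not tested.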

Other observations

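Of the sites of the MII oocyte list, 24.16% (1870 of 7740, 23.22 to 25.13) of those not in the GV oocyte list and 47.44% (6145 of 12954, 46.58 to 48.3) of those in it were also in the 1-cell embryo list. At MII levels of 10 to 15% the shares were 28.49% (27.22 to 29.8) and 39.26% (37.07 to 41.5), and at 20 to 30% they were 12.88% (10.98 to 15.06) and 47.79% (46.1 to 49.48). Coverage differed between these sets. Among sites not in the GV oocyte list, the median MII coverage was 229.5 reads in those also in the 1-cell embryo list and 62 reads in the others. Among those in it, the medians were 242 and 73 reads, and a shallow site needs a higher level to be listed. The part of coverage in these shares was not tested, and each stage had 1 library.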
